A study of Homo sapiens with 12 samples.

Results

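The cell cycle genes described here are 10 regulators of the passage from G1 to S phase: the D-type cyclins CCND1, CCND2 and CCND3, the kinases CDK4, CDK6 and CDK2, the inhibitors CDKN2A, CDKN2B and CDKN1B, and the retinoblastoma gene RB1. They were listed by name for their role in the cycle, with earlier results of these data known, and are 10 of the 10626 genes tested in the series. Each gene was read through 1 probe set, the one with the highest mean over the 12 arrays among those not marked _x_at, the suffix of probe sets that may bind several transcripts. The cells were HK-2, an immortalised line from human renal proximal tubule, measured on Affymetrix arrays in 4 groups of 3 biological replicates. These were cells given the compound that the labels call Di for 12 h or 48 h, and cells given its vehicle as control for the same times. All groups shared the line and a growth medium with EGF (10 ng/ml), insulin (5 µg/ml), hydrocortisone, transferrin and selenite, and were treated near 90% confluence. What compound Di is, and how much was given, is not stated in the labels, and all results come from this 1 cell line. For every value below n = 3 arrays per group, errors beside group means are SDs, errors beside log2 changes are standard errors of the limma fit, and adjusted p-values come from that fit with Benjamini-Hochberg adjustment over all 10626 genes.

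In G1 phase, mitogens such as EGF raise D-type cyclins, which bind CDK4 or CDK6 and start the phosphorylation of the retinoblastoma protein. Phosphorylated retinoblastoma protein releases E2F transcription factors, which switch on cyclin E and other S phase genes, and cyclin E with CDK2 carries the phosphorylation further. INK4 inhibitors, among them the products of CDKN2A and CDKN2B, block CDK4 and CDK6, while the product of CDKN1B (p27) acts mainly on CDK2 complexes. HK-2 cells were immortalised with papillomavirus oncogenes, one of which inactivates the retinoblastoma protein.

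Array medians lay between 2.967 and 3.06 (log2), and arrays of 1 group correlated at 0.986 to 0.996 across kept probe sets, which are not independent. The array farthest from the mean of its group was replicate 2 of Di at 12 h (root mean square difference 0.263; all others 0.126 to 0.209). Of 12 proximal tubule markers only PAX8 passed the level filter; LRP2, CUBN, ANPEP, GGT1 and AQP1, which define the differentiated tubule, stayed under a log2 value of 4 in every array. All 5 epithelial markers were measured, none of 4 endothelial and none of 4 leukocyte markers, and 2 of 5 fibroblast markers. The latter were COL1A1 and DCN, and the summed linear level of the 5 fibroblast genes, most of it DCN, was 2365 in control and 2333 in Di at 12 h, and 1113 and 616 at 48 h. The epithelial sum was 15363 and 15302 at 12 h, and 17726 in control and 13788 in Di at 48 h. At 48 h CDH1 averaged 8.07 in control and 6.74 in Di, KRT19 11.42 and 10.23, and EPCAM 13.05 and 12.40. KRT8 (10.55 and 10.68) and KRT18 (12.21 and 12.41) went the other way. The part of these markers in the results below was not tested. In cultures measured in bulk, fewer cells with a transcript and less of it per cell cannot be told apart.

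All 10 genes passed the level filter, a log2 value over 4 in at least 3 arrays, and none of the chosen probe sets fell under 4 on any array. At 12 h Di differed from control in 1 of the 10, CCND2, against 13.7% of all tested genes (3.9% higher and 9.78% lower, a split that became 54.3% higher among the called genes, from 28.5%, with each array centred on the median of the tested genes). At 48 h it differed in 7 of the 10, with 3 higher (CCND1, CDK6, CDKN2B) and 4 lower (CCND2, CDK4, CDKN1B, CDKN2A), against 50.9% of all genes (22.9% higher, 28% lower). The groups did not overlap for those 7, beside 61.6% of all genes. The median absolute log2 change of the 10 genes at 48 h was 0.47, beside 0.31 for all genes. In control cells alone, 6 of the 10 were lower at 48 h than at 12 h and 0 higher, against 52.9% of all genes (21.9% higher, 31% lower; with the same centring 51.5% of the calls were higher, from 41.3%). The control groups at the 2 times did not overlap for 7 of the 10, beside 65.1% of all genes. For actin, the 3' minus the 5' probe set, which grows as RNA degrades, gave 1.71 ± 0.178 in control at 12 h and 1.33 ± 0.128 in control at 48 h, and its part in the changes over time was not tested. The shares at 48 h and over time are thus read beside a large background of change.

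**Figure D1:**
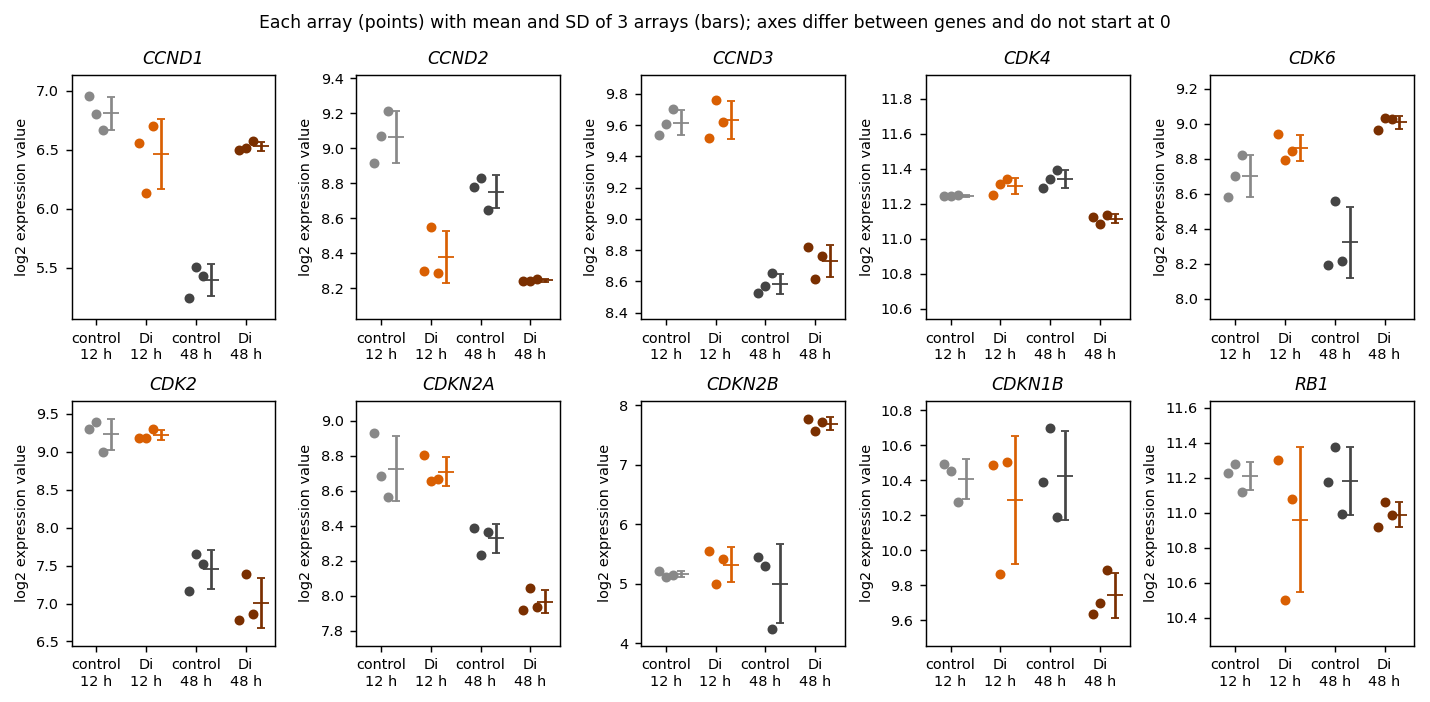
Deposited log2 expression value of the 10 genes on each of the 12 arrays, by treatment and time; bars give the mean and SD of 3 arrays, and the axes differ between genes and do not start at 0. CDKN2B lay between 7.57 and 7.78 in Di at 48 h and at or under 5.55 on all other arrays, while CCND1 stood apart in control at 48 h, at 5.25 to 5.51.

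CCND1 encodes cyclin D1, the D-type cyclin best known as a target of mitogen signalling. Its level was 6.95, 6.80 and 6.67 in control at 12 h and 6.55, 6.13 and 6.70 in Di at 12 h. At 48 h it was 5.25, 5.51 and 5.43 in control and 6.50, 6.52 and 6.58 in Di. The 48 h groups lay far apart and the 12 h groups overlapped, with replicate 2 of Di at 12 h the lowest of its group. In control the level fell with time by 1.42 on the log2 scale (2.67-fold, adjusted p = 6.66e-06). The 3 Di arrays at 48 h lay inside the range of Di at 12 h, but replicate 2 alone set the low end of that range. On a second kept probe set Di averaged 5.92 at 12 h and 5.64 at 48 h, and Di at the 2 times was not compared by a test. Di at 48 h was 2.20-fold above its control (log2 change 1.14 ± 0.135, adjusted p = 3.19e-05), and at 12 h the difference was -0.34 ± 0.135 (adjusted p = 0.114), or -0.18 without replicate 2 of Di. The difference from control changed between the times by 1.48 ± 0.191 (adjusted p = 0.000132). The second kept probe set of CCND1 gave 0.16 at 12 h (adjusted p = 0.661), the opposite sign, 0.78 at 48 h without overlap and -0.91 in control over time, the last 2 called, but its change of effect between the times was 0.62 (adjusted p = 0.116).

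CCND2, cyclin D2, was the member that differed at 12 h. It read 8.92, 9.07 and 9.21 in control and 8.30, 8.55 and 8.28 in Di at 12 h, and 8.78, 8.83 and 8.64 in control against 8.24, 8.24 and 8.25 in Di at 48 h. The groups did not overlap at either time, and the 3 Di arrays at 48 h were nearly identical. The fall was 1.61-fold at 12 h (-0.69 ± 0.096, adjusted p = 0.00187) and 1.42-fold at 48 h (-0.51 ± 0.096, adjusted p = 0.00102), and the effects at the 2 times differed by 0.18 (95% interval -0.12 to 0.48, adjusted p = 0.323). This result belongs to 1 probe set: the other kept probe set of CCND2 stood at 0.13 at 12 h and 0.22 at 48 h with overlapping groups, and the mean of both gave -0.28 (adjusted p = 0.0835) and -0.14 (adjusted p = 0.248). At 12 h, groups without overlap occurred in 34.8% of all tested genes. The same actin difference was 1.22 ± 0.239 in Di and 1.71 ± 0.178 in control at 12 h, and its part in the 12 h difference was not tested.

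CCND3, cyclin D3, moved with time and not detectably with Di. It lay at 9.54 to 9.70 in control and 9.51 to 9.76 in Di at 12 h, and at 8.53 to 8.65 and 8.62 to 8.82 at 48 h. Both treatments overlapped at each time, and every 48 h array lay below every 12 h array. In control the fall over time was 2.04-fold (-1.03 ± 0.0847, adjusted p = 2.05e-06). The difference between Di and control was 0.02 at 12 h (95% interval -0.17 to 0.20) and 0.15 at 48 h (-0.04 to 0.34). The D-type cyclins thus gave 3 different patterns: at 48 h CCND1 was higher in Di, CCND2 lower on its chosen probe set, and CCND3 within an interval around 0.

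**Figure D2:**
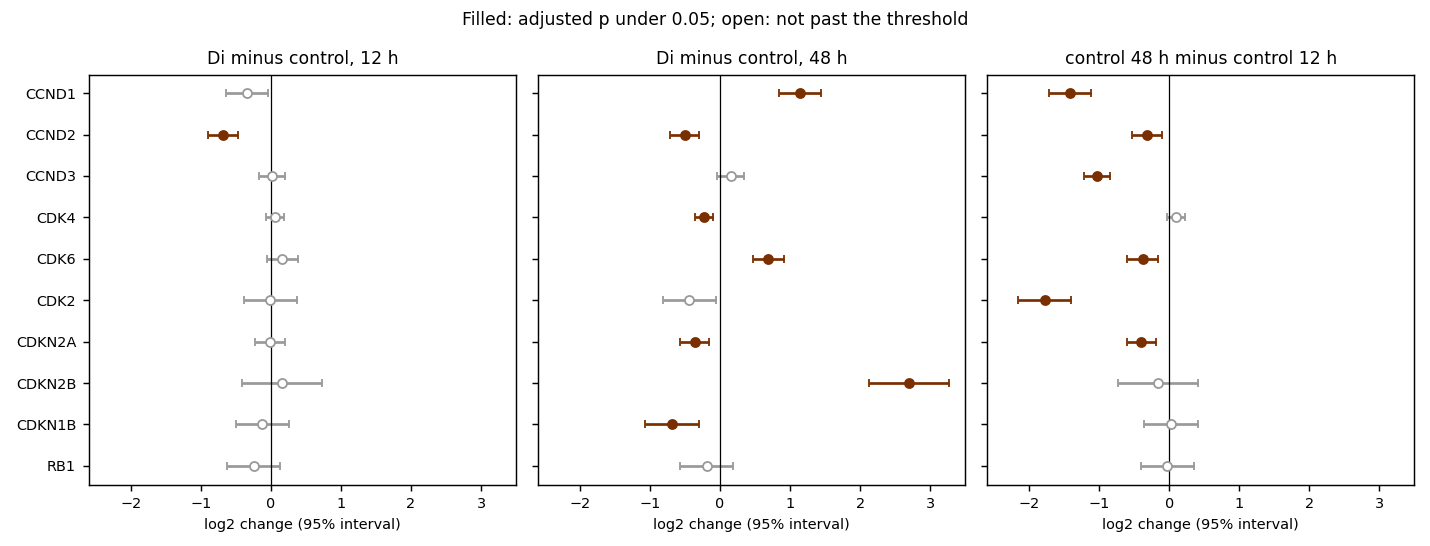
Log2 change (horizontal axis) of each of the 10 genes for Di against control at 12 h and at 48 h and for control at 48 h against control at 12 h, with 95% intervals of the limma fit; filled points passed an adjusted p of 0.05. At 12 h only CCND2 was called, at 48 h 7 genes, with CDKN2B at 2.69 the farthest from 0.

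The kinases of the D-type cyclins differed from control in opposite directions at 48 h. CDK6 read 8.58, 8.70 and 8.82 in control and 8.94, 8.80 and 8.85 in Di at 12 h, then 8.19, 8.56 and 8.21 in control and 8.97, 9.03 and 9.03 in Di at 48 h. All Di arrays at 48 h were above all controls, and replicate 2 of control at 48 h was the highest of its group. CDK6 rose 1.61-fold at 48 h (0.69 ± 0.101, adjusted p = 0.000172), stood at 0.16 at 12 h (adjusted p = 0.318), and the effect differed between the times by 0.53 ± 0.143 (adjusted p = 0.0138). The 4 other kept probe sets of CDK6 also lay higher in Di at 48 h, by 0.31 to 1.02, and 3 of these 4 did so without overlap. With the mean of all 5 the change of effect was 0.42 (adjusted p = 0.078), and on the probe set with the second highest mean it was 0.89 (adjusted p = 0.000341). In control CDK6 fell over time (-0.38, adjusted p = 0.00857), but with the mean of all 5 probe sets this was 0.026 (adjusted p = 0.875), and 2 of the other probe sets lay higher at 48 h. Those 2 were the lowest of the 5, averaging 4.78 and 3.83 over the 12 arrays, the latter under 4 on 6 arrays. The remaining 2 lay lower at 48 h, by -0.48 without overlap and by -0.30 with overlap.

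CDK4, read by 1 probe set, varied little. It read 11.24, 11.24 and 11.25 in control and 11.25, 11.32 and 11.34 in Di at 12 h, and 11.29, 11.34 and 11.39 in control against 11.13, 11.08 and 11.13 in Di at 48 h. The groups at 48 h did not overlap, and the fall was small at 1.17-fold (-0.23 ± 0.0582, adjusted p = 0.00662). The effect differed between the times by -0.28 ± 0.0823 (adjusted p = 0.0189). When each array was centred on the median of the tested genes, the 48 h difference was -0.185 and no longer called (adjusted p = 0.0587).

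CDK2, the partner of cyclin E and cyclin A, showed the largest fall over time in control cells among the 10 genes. Its level was 9.30, 9.39 and 9.00 in control and 9.18, 9.18 and 9.30 in Di at 12 h, and 7.17, 7.66 and 7.53 against 6.78, 7.39 and 6.86 at 48 h. On this probe set the treatments overlapped at both times, while the times were far apart. The fall in control was 3.43-fold (-1.78 ± 0.171, adjusted p = 7.09e-06), and the second probe set gave -1.03. Di against control stood at -0.01 at 12 h and at -0.44 ± 0.171 at 48 h (95% interval -0.82 to -0.06), which did not pass after adjustment (adjusted p = 0.051). That value lay at the threshold, and 7 of 22 alternative analyses called it lower, with adjusted p-values from 0.00643 to 0.174 over all 22. It was called without replicate 3 of control at 12 h (adjusted p = 0.0472), without replicate 1 of control at 48 h (-0.58, adjusted p = 0.0206) and with Di replicate 2 of 48 h left out (-0.63, adjusted p = 0.00643). The mean of both probe sets was also called at 48 h (-0.54, adjusted p = 0.035). For Di against control the second probe set alone gave 0.54 at 12 h with overlap and -0.64 at 48 h without overlap.

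CDKN2A and CDKN2B, the INK4 inhibitor genes, lie next to each other on chromosome 9 and responded differently. CDKN2B, which encodes p15 and is known as a target of TGF-beta, read 5.21, 5.12 and 5.15 in control and 5.55, 5.00 and 5.42 in Di at 12 h. At 48 h it read 5.46, 5.30 and 4.24 in control and 7.78, 7.57 and 7.72 in Di. Replicate 3 of control at 48 h was low, and every Di array at 48 h was above every other array. CDKN2B rose 6.48-fold at 48 h (2.69 ± 0.261, adjusted p = 6.36e-06), or by 2.31 without the low control array, and stood at 0.16 at 12 h (95% interval -0.41 to 0.74). The effect differed between the times by 2.53 ± 0.369 (adjusted p = 0.000305). A second probe set lay under the floor on all arrays but 1: it read 3.22, 4.06 and 3.96 in Di at 48 h and 2.27 to 2.40 elsewhere.

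CDKN2A, which encodes p16 and, from an upstream start, the p53 regulator ARF, read 8.93, 8.69 and 8.56 in control and 8.81, 8.65 and 8.67 in Di at 12 h. At 48 h it read 8.39, 8.23 and 8.36 in control and 7.92, 8.04 and 7.93 in Di. The 48 h groups did not overlap and both lay under the 12 h groups. It fell 1.29-fold with Di at 48 h (-0.36 ± 0.0958, adjusted p = 0.0081) and 1.32-fold over time in control (-0.40, adjusted p = 0.00463). The second probe set, marked _x_at, gave -0.09 for Di at 48 h (adjusted p = 0.455) and -0.29 over time. The annotation used here does not say which of the CDKN2A transcripts a probe set reads.

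The 250 bases before the starts of these neighbours, and of CDK4 and CDK6, are shown because the genes of each pair parted at 48 h. The sequences are from RefSeq (GRCh38.p14), all on the minus strand and written 5′ to 3′ in the direction of the gene: CDKN2B at chr9:22009306-22009555, the upstream CDKN2A start at chr9:21995325-21995574, the downstream one at chr9:21974858-21975107, CDK4 at chr12:57752311-57752560 and the CDK6 start farthest upstream at chr7:92836574-92836823. Capitals mark matches, on either strand, to the GC box GGGCGG, the E-box CACGTG, E2F sites TTTCCCGC and TTTGGCGC, the AP-1 site TGANTCA and the antioxidant response element TGACNNNGC.
CDKN2B: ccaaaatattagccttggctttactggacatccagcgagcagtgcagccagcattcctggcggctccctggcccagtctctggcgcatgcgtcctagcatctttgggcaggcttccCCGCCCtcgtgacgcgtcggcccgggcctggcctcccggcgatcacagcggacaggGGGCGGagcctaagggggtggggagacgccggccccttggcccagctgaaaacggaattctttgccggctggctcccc
CDKN2A upstream: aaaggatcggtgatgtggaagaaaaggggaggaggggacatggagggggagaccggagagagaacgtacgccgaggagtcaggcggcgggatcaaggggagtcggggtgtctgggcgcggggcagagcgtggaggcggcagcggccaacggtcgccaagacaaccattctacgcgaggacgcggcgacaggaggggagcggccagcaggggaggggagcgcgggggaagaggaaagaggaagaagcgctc
CDKN2A downstream: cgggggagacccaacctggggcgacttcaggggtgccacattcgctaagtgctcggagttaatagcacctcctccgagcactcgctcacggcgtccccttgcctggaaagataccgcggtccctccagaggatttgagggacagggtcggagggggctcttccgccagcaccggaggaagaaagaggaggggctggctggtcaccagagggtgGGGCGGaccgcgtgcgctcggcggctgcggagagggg
CDK4: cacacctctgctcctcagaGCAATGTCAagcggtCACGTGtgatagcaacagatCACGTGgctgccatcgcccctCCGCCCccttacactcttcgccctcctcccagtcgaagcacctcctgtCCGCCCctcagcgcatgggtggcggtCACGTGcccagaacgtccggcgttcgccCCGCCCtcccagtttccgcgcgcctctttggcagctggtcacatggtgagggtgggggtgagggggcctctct
CDK6: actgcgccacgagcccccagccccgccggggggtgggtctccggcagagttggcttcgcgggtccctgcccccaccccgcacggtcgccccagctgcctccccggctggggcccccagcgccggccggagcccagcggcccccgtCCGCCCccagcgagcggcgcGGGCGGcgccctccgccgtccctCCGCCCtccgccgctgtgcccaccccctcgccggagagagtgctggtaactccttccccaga

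CDKN2B held 2 GC boxes, the downstream CDKN2A start held 1 and the upstream one 0. CDK6 held 3 GC boxes, and CDK4 held 3 together with 3 E-boxes and 1 match to the antioxidant response element. Over all 35116 starts in the table, 42.6% of windows of the same length held a GC box, 6.34% an E-box and 10.9% an antioxidant response element. None of the 5 windows shown held an E2F or AP-1 match, which occurred in 1.39% and 0.55% of all windows for the E2F forms and in 6.57% for AP-1. These are matches of letters and not measured binding. Of the 10 genes, 7 had an entry in that table.

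CDKN1B encodes p27, which holds CDK2 inactive in resting cells. It read 10.49, 10.45 and 10.27 in control and 10.49, 9.87 and 10.50 in Di at 12 h, and 10.39, 10.70 and 10.19 in control against 9.64, 9.70 and 9.89 in Di at 48 h. At 48 h the groups did not overlap, and at 12 h replicate 2 of Di alone was low. CDKN1B fell 1.61-fold at 48 h (-0.69 ± 0.175, adjusted p = 0.00657), a call that all 21 alternatives kept. The gene has only 1 probe set, so no alternative could read it through another. At 12 h the difference was -0.12 (95% interval -0.50 to 0.26), and 0.09 without that array. Control cells showed 0.02 over time. The change of effect between the times was -0.56 ± 0.247 (adjusted p = 0.0946), and -0.78 with that array left out (adjusted p = 0.00692). With each array centred on the median of the tested genes it was -0.61 (adjusted p = 0.0351).

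RB1, the target of these kinases, read 11.23, 11.28 and 11.12 in control and 11.30, 10.50 and 11.08 in Di at 12 h, and 11.18, 11.38 and 10.99 in control and 10.92, 11.06 and 10.99 in Di at 48 h. The groups overlapped at both times, with replicate 2 of Di at 12 h again low. No contrast was called: Di against control was -0.25 at 12 h (95% interval -0.63 to 0.13; -0.02 with that array left out) and -0.19 at 48 h (-0.57 to 0.19), and control over time was -0.03. A second probe set of RB1 read 5.10, 3.92 and 4.09 in control at 12 h and 5.75 to 6.57 on all other arrays. On it Di was higher by 1.52 at 12 h (adjusted p = 0.00658) and control rose by 2.09 over time (adjusted p = 5.21e-05), so the probe sets of RB1 did not give 1 answer for control at 12 h.

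**Figure D3:**
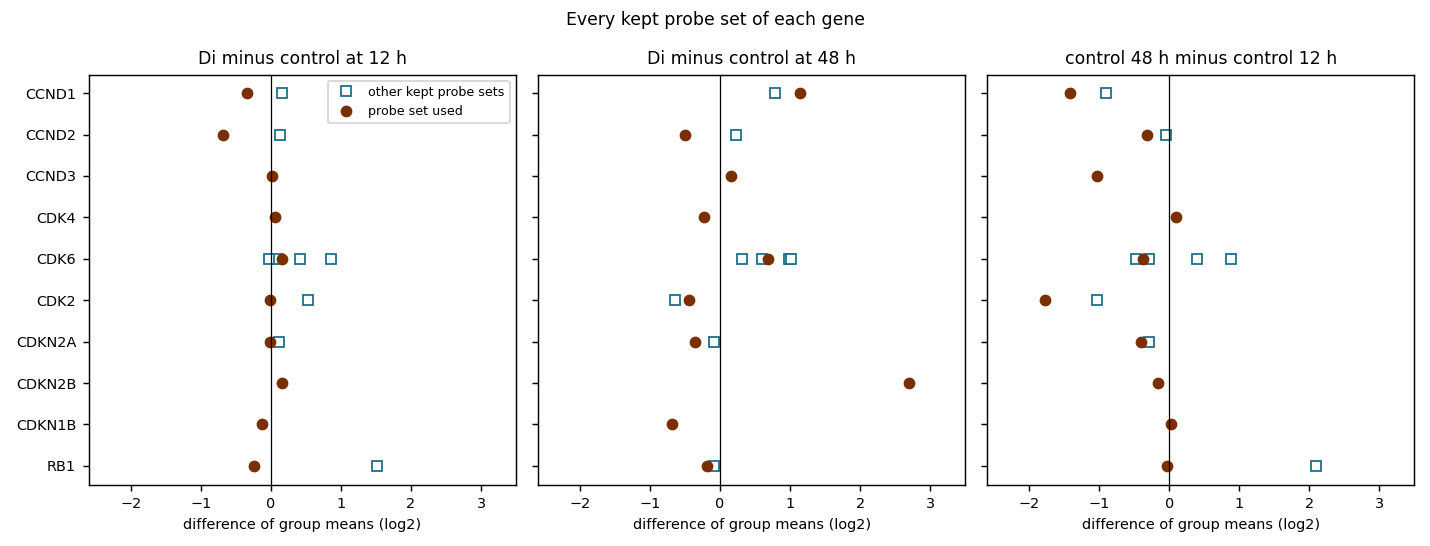
Difference of group means (log2, horizontal axis) for every kept probe set of the 10 genes in 3 comparisons; filled points are the probe sets used and open squares the others. At 48 h the 5 probe sets of CDK6 all lay above 0 and those of CCND1 at 0.78 and 1.14, while those of CCND2 lay on both sides of 0; at 12 h those of RB1 stood at -0.25 and 1.52.

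The Di effect at 48 h differed from that at 12 h for 4 of the 10 genes, against 38.3% of all genes (19.8% upward, 18.5% downward): CCND1, CDK6 and CDKN2B upward and CDK4 downward. For CCND2, CCND3, CDK2, CDKN1B, CDKN2A and RB1 no such difference passed. CDKN2A stood at -0.35 (95% interval -0.64 to -0.05, adjusted p = 0.0662), and passed in 3 of 21 alternatives. These were without replicate 1 of control at 12 h (-0.45, adjusted p = 0.0134), with quantile normalisation (-0.37, adjusted p = 0.0424) and with centring on the median of the tested genes (-0.39, adjusted p = 0.0404). CDK2 stood at -0.43 (adjusted p = 0.188), and passed in 3 of 21 alternatives: on its second probe set (-1.17, adjusted p = 0.028), with the mean of both (-0.80, adjusted p = 0.0365) and with Di replicate 2 of 48 h left out (-0.62, adjusted p = 0.0381). The contrast of Di with control at 48 h and that of control over time share the control arrays at 48 h, so a value that is low there enters both. For CCND1 the values stand side by side at 1.14 and -1.42, for CDK6 at 0.69 and -0.38, and for CDK2 at -0.44 and -1.78.

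The wider circuit was read through 34 other G1 and S phase genes, of which 32 were measured. At 12 h 3 were higher and 3 lower, beside 3.9% and 9.78% of all genes. CDKN1A, the inhibitor p21, rose by 0.48 ± 0.0755 (adjusted p = 0.00382). CDK7 (0.31, adjusted p = 0.0142) and CCNH (0.24, adjusted p = 0.041), which form the kinase that activates other CDKs, also rose. LIN9, of the DREAM complex and read by an _x_at probe set, fell by 0.61 (adjusted p = 0.00428), the RB1 relative RBL2 by 0.48 (adjusted p = 0.00625) and E2F2 by 0.67 (adjusted p = 0.0285). The call of CCNH ended without any 1 of replicates 2 and 3 of control at 12 h (0.123 and 0.122), the Di arrays at 12 h (0.0694 to 0.0795), replicate 1 of control at 48 h (0.0616) or the Di arrays at 48 h (0.0502 to 0.0598). That of E2F2 ended without replicates 1 and 2 of either 12 h group (0.06 to 0.107), and that of CDK7 without replicate 2 of control (0.0574). Fitted to the 12 h arrays alone, CCNH (0.105), CDK7 (0.0714) and E2F2 (0.123) were not called. With the replicate number as a block CCNH (0.0832) and E2F2 (0.0595) were not called. On its second probe set RBL2 stood at -0.005, and with no filter LIN9, then read by another probe set, at -0.30 (adjusted p = 0.528).

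At 48 h 6 of the 32 were higher in Di and 10 lower, a share close to the 50.9% of all genes, and their median log2 change was -0.07 beside -0.02 for all genes. CDKN1A rose 3.51-fold, from 9.52 ± 0.0844 to 11.33 ± 0.0946 (adjusted p = 8.53e-09). Thus 2 of the CDK inhibitors measured, CDKN1A and CDKN2B, were higher while CDKN1B, CDKN2A and CDKN1C were lower. CDKN2D was not called, but its means at 48 h were under the floor of 4 in both groups (3.74 in control and 3.95 in Di). CDKN1C fell by 0.84, but its second probe set gave -0.15 (adjusted p = 0.22). E2F3 (0.56), MNAT1 (0.48), a partner of CDK7, and the repressor E2F6 (0.44) were also higher in Di than in control (adjusted p between 0.00345 and 0.00934). E2F3 averaged 9.60 in control and 9.53 in Di at 12 h, and 8.89 and 9.44 at 48 h. Its fall over time in control was called (-0.72, adjusted p = 0.000655). The largest fall was that of the cyclin E gene CCNE2, from 7.52 ± 0.138 to 4.82 ± 0.314 (6.50-fold, adjusted p = 1.96e-07). The other cyclin E gene, CCNE1, fell 1.78-fold (adjusted p = 0.000133) and the cyclin A gene CCNA2 2.26-fold (adjusted p = 3.43e-05). FBXO4, which takes part in the breakdown of cyclin D1, fell 2.44-fold (adjusted p = 1.1e-06), and SKP2, which marks p27 for breakdown, at least 1.68-fold, its Di mean being under the floor (adjusted p = 0.00331). RBL1 fell 2.16-fold (adjusted p = 0.00138), but its second probe set gave -0.48 (adjusted p = 0.0589). E2F1 stood at -0.30 (adjusted p = 0.323), with replicate 1 of Di alone low. It read 5.18, 5.14 and 5.14 in control and 4.29, 5.13 and 5.15 in Di.

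In control cells 13 of the 32 wider genes fell from 12 h to 48 h and 6 rose, beside 31% and 21.9% of all genes, whose split moved with the centring as given above. CCNE1 fell 4.73-fold, CCNA2 4.06-fold, CCNE2 4.01-fold and E2F1 2.90-fold (adjusted p between 7.31e-08 and 0.000244), beside the falls of CDK2, CCND1 and CCND3 given above. CDK7 rose 2.82-fold. The effect of Di at 48 h differed from that at 12 h in 13 of the 32, a share close to the 38.3% of all genes, among them CCNE2 (-2.63), CCNE1 (-0.62) and CDKN1A (1.33).

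**Figure D4:**
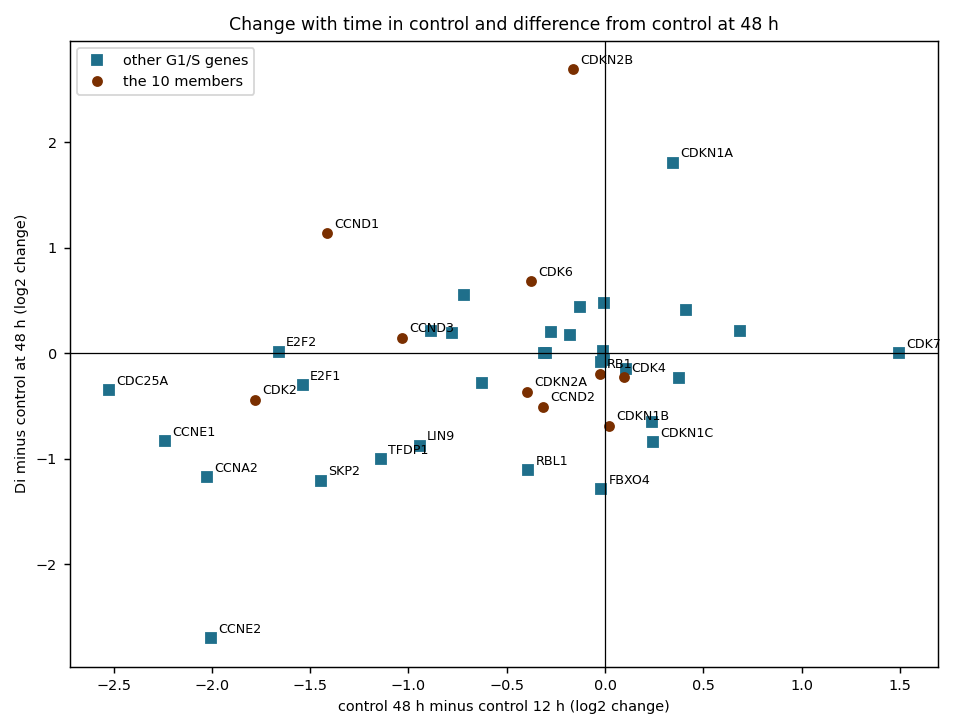
Each point is 1 gene: its log2 change over time in control (horizontal axis) and its log2 difference between Di and control at 48 h (vertical axis) for the 10 genes and 32 other G1 and S phase genes. The axes share the control arrays at 48 h; CCND1 (-1.42 and 1.14) lies in the upper left and CCNA2 (-2.02 and -1.17) in the lower left.

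The genes whose group means followed a member most closely were found over the 4 groups, after centring each gene on its own mean. For CDKN2B, the member with the largest called rise at 48 h, these included the adaptor BCAR3 (root mean square difference 0.0839, Di against control at 48 h 2.77) and the peptide hormone gene ADM (0.0965 and 2.77). For CDKN1B, the member with the largest called fall, they were MYL6B, a myosin light chain (0.00945 and -0.67), HINT2, a mitochondrial hydrolase (0.0191 and -0.72), and GTF3C6, a subunit of a transcription factor of RNA polymerase III (0.0203 and -0.66). Likeness over 4 means is a description of these arrays and was not tested.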

How the data were processed

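Total RNA of HK-2 cells was measured on 12 Affymetrix arrays, 3 biological replicates in each of 4 groups. The deposited log2 values were made by the authors with GCRMA, per the submitters' processing notes (version not given), which corrects background, normalises and summarises each probe set. Arrays give no counting depth, so their number limits the precision.

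Of 54675 probe sets, 62 controls were left out. The platform annotation gave 41097 probe sets 1 gene symbol, 1801 several and 11777 none; symbols were updated by gene ID. Probe sets over log2 4 in at least 3 arrays were kept, 1 per gene (not _x_at if possible, highest mean), leaving 10626 genes. In R 4.3.3, limma 3.58.1 estimated 4 group means by lmFit and eBayes from the 12 arrays (two-sided tests), checked on simulated data, with Benjamini-Hochberg adjustment; genes were called at adjusted p under 0.05. Folds against a group mean under 4 are bounds against 4. Figures used matplotlib 3.10.9.

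The members and the list of 34 other genes were chosen with earlier results of these data known. All 10 members were named; from the list, genes called at 12 h, the 4 largest called changes in each direction at 48 h, and CCNE1, CCNE2, CDKN1A, E2F1, RBL1 and SKP2. CDKN1C and CDKN2D are also given with the other CDK inhibitors, and SKP1 and TFDP2 where an alternative reversed them. TFDP2 and CDC25A are given where a second probe set added a call at 48 h. Of the 3 genes most like CDKN2B, 1 is not reported here. Alternatives were quantile normalisation, no filter, a floor of log2 6, robust and trended moderation, centring on the array median, other probe sets, single time points, a replicate block and leaving out each array. Centring on the median of the tested genes was chosen after seeing the data.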

Additional observations from a re-analysis of the deposited data

Results flagged for a closer look

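For 4 of the 10 genes, beside 38.3% of all genes tested, the difference between Di and control was not the same at 12 h and 48 h by the interaction term of the limma fit. The difference at 48 h minus that at 12 h was 2.53 for CDKN2B, 1.48 for CCND1, 0.53 for CDK6 and -0.28 for CDK4 (log2 scale; adjusted p between 0.000132 and 0.0189). CCND1 on its second probe set (0.62, adjusted p = 0.116) and CDK6 with the mean of its probe sets (0.42, adjusted p = 0.078) did not pass. CCND1 and CDK6 were each called in 20 of 21 alternatives, and CDK6 on its second probe set stood at 0.89 (adjusted p = 0.000341). Groups of 3 arrays were too small to test for a single array far from the others.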

How the results depend on the processing

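The number of genes called at 12 h was 1453, but 575 when fitted to the 12 h arrays alone and 745 to 1457 when 1 array was left out (745 without replicate 2 and 778 without replicate 3 of control at 12 h). Centring on the median of the tested genes moved the share of higher calls from 28.5% to 54.3% at 12 h and from 41.3% to 51.5% for control over time. The other counts stayed within 1.5 times of their value. Of the alternative values of the 10 genes, 809 kept their direction or call, 15 passed the threshold newly, 11 lost it and 9 reversed. On its second probe set CCND2 was at 0.13 at 12 h and 0.22 at 48 h, and RB1 at 1.52 at 12 h, 2.09 in control over time and -1.61 for the change of effect. With the mean of all kept probe sets RB1 was at 0.64, 1.03 and -0.77 for the same, CDK6 at 0.026 in control over time, and SKP1 at -0.23 at 48 h and -0.35 for the change of effect. RBL2 was at -0.17 for the change of effect and TFDP2 at 0.39 in control over time on second probe sets. For Di against control at 48 h, second probe sets also added calls of lower in the wider list. TFDP2 went from -0.28 (adjusted p = 0.0533) to -1.23 (adjusted p = 3.52e-07). CDC25A went from -0.35 (adjusted p = 0.156) to -0.997 (adjusted p = 0.0276). CDKN1C and RBL1 lost theirs, as given above. The cause was not tested. The fall of CCND2 over time in control lost its call without replicate 3 of control at 12 h (-0.24, adjusted p = 0.0717) or at 48 h (-0.26, adjusted p = 0.066), with centring on the tested genes (-0.23, adjusted p = 0.122), with the mean of its probe sets (-0.18, adjusted p = 0.132) and on the second probe set (-0.05, adjusted p = 0.759).

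The labels do not say that replicate numbers pair the arrays. Same-numbered Di and control arrays had correlations of deviations between -0.204 and 0.155 at 12 h and between -0.266 and 0.128 at 48 h, and not every array correlated best with its own number. With the replicate number as a block, 1003 genes were called at 12 h, 5076 at 48 h, 3645 for the change of effect and 5257 for control over time, and 1, 8, 4 and 6 of the 10 genes; the added call was CDK2 at 48 h (adjusted p = 0.0348).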
